A study of Mus musculus with 11 samples.

Results

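Fat cells make fatty acids from glucose and join them to glycerol as triglyceride, and the 33 genes described here encode the steps of that route. They were listed by name from textbook knowledge of the pathway, under 7 roles: acetyl-CoA supply, NADPH supply, fatty acid synthesis itself, its regulators, chain elongation, desaturation, and triglyceride assembly. Earlier results of these data were known when the list was chosen, so counts over it are descriptions and not tests. Each gene was represented by its brightest probe set that carried a single gene symbol, judged by the mean log2 signal over all 11 arrays. A probe set was found for 32 of the 33 (G6pdx, which encodes glucose-6-phosphate dehydrogenase, has no signal analysed here), all 32 passed the filter on dim probe sets, and they are 32 of 12709 genes measured.

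The arrays hold RNA of epididymal fat, a visceral depot, of male C57BL/6 mice aged 3 months and kept on standard chow. Wild-type mice (B1+/+) gave 4 arrays and mice without the receptor for kinins called B1, deleted in the whole body (B1-/-, knockout), gave 4 more. Fat rescue mice (aP2B1-B1-/-) gave 3: they lack their own receptor gene too, and the receptor is put back in fat under the aP2 promoter, that of Fabp4, which is active in fat cells but also in some macrophages. The labels call the arrays of a genotype biological replicates without naming animals, so the p-values measure the spread between these samples as labelled.

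In outline, mitochondrial citrate is carried to the cytosol and split to acetyl-CoA, acetyl-CoA carboxylase turns this into malonyl-CoA, and fatty acid synthase builds palmitate from malonyl-CoA with electrons from NADPH. Elongases and desaturases lengthen palmitate and add double bonds, and acyltransferases then build triglyceride on glycerol phosphate. The transcription factors SREBP-1c and ChREBP, encoded by Srebf1 and Mlxipl, drive many of these genes together after feeding, under insulin and glucose, and the pathway is a hallmark of the fat cell and the liver cell.

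The stretch before the transcription start is shown for 5 entries: Acly, Fasn and Elovl6, whose signals varied widely between arrays, Fads3, which had the smallest p in knockout against wild type, and Mlxipl, the only member whose window held the SREBP element searched for. The sequences are 250 bases each, from RefSeq on mouse GRCm38.p6, printed 5' to 3' on the gene's strand and ending at the base before the start site. Capitals mark the SREBP element TCACNCCAC, the E-box CACGTG, the NF-Y box CCAAT and the Sp1 box GGGCGG on either strand.
Acly, chr11:100528001-100528250, minus strand: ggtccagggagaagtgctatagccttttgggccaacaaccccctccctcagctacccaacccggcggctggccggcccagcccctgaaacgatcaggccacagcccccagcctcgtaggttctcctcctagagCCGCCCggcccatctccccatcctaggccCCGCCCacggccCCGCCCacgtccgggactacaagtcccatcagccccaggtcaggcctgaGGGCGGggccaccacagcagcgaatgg
Fasn, chr11:120824548-120824797, minus strand: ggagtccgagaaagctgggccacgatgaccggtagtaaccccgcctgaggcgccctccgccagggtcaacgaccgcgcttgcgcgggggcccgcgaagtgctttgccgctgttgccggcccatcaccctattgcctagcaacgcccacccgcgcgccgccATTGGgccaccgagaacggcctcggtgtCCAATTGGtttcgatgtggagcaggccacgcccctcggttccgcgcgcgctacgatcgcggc
Elovl6, chr3:129532136-129532385, plus strand: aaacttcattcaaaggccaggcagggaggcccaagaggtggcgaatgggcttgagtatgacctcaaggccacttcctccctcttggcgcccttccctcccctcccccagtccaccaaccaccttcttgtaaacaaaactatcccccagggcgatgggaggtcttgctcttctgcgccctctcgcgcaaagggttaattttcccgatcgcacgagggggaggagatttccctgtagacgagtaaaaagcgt
Fads3, chr19:10041298-10041547, plus strand: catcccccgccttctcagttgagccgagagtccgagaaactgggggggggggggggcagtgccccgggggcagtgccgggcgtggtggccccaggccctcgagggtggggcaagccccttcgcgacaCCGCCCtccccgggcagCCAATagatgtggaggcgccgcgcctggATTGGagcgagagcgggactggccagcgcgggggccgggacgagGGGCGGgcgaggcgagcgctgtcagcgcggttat
Mlxipl, chr5:135106641-135106890, plus strand: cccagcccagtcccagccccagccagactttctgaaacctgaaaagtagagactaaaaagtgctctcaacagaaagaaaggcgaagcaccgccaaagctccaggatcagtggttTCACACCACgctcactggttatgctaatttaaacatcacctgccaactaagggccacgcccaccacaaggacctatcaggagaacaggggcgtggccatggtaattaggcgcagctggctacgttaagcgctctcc

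Of the 33 listed members, 28 had at least 1 entry in the promoter table (G6pdx, with no signal here, among them, and counted below under the Sp1 box), 37 entries in all, against 32851 for all genes. The SREBP element lay in 1 of the 28 genes, at 1 of the starts of Mlxipl, against 1.22% of all genes with an entry. The E-box lay in 4 (14.3%, against 6.86% of all genes), namely Elovl5, Slc25a1, Lpin2 and another start of Mlxipl. The NF-Y box lay in 17 (60.7%, against 37.5%), with 3 matches in the Fasn window, of which 2 overlap. The Sp1 box lay in 20 (71.4%, against 35.4%), with 4 matches in that of Acly. The Elovl6 window held none of the 4 motifs, which says only that these letters are not in these 250 bases, and a match is a description of the sequence, not a site.

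Across the whole series the authors' software set a common trimmed mean of 200, and the median signal of the arrays then differed by genotype, at 41.3 to 45.1 in wild type, 46.5 to 48.8 in knockout and 45.6 to 46.6 in fat rescue. All wild-type medians lay below all others, and the effect of centring on the median is given with the counts by role. Bdkrb1, which encodes the receptor, has 1 probe set, under the filter. It read 57.8 to 73.4 in fat rescue, 3.70 to 32.2 in wild type and 4.80 to 29.7 in knockout, so it does not separate the last 2 groups. Of 13 adipocyte markers 11 were measured, none was at 0, and the brightest were Fabp4, Adipoq and Lpl. The first principal component of all genes set wild-type array 1 and rescue array 1 off from the other 9 (-45.4 and -34.1, at 27.3% of the variance).

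No synthesis gene passed an adjusted p of 0.05 in any comparison. Most had lower means in knockout and in fat rescue than in wild type: 27 of 32 were lower in knockout, with a median log2 difference of -0.26, and 28 of 32 in fat rescue, with a median of -0.31. Of all 12709 genes, 46.3% and 44.3% had lower means in these comparisons, with medians of 0.02 and 0.03. Both comparisons share the wild-type arrays. Without wild-type array 1 and rescue array 1, which were set off on the first component, the medians were -0.18 and -0.27. The numbers of synthesis genes called were 0 for knockout against wild type (0.0393% of all genes called), 0 for fat rescue against wild type (0.0157% called) and 0 for the moderated F test over the 3 genotypes (0.0393% called).

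The spread between arrays was wide for part of the pathway. Over all 11 arrays the highest signal was 8.34 times the lowest for Elovl6, 5.12 times for Scd2, 4.70 times for Fasn, 4.41 times for Acly and 4.20 times for Acss2. Within fat rescue alone these ratios were 8.34, 4.89, 4.59, 4.41 and 4.17. Rescue array 3 was the lowest of all 11 arrays for 19 of 32 synthesis genes, whereas it was the lowest for 10.04% of all genes. Wild-type array 1 was the highest for 17, against 14.1% of all genes. The map of all members by array shows these as 2 columns, and shows rescue array 2, of the same genotype as rescue array 3, below the wild-type mean in 13 of 32 rows, where rescue array 3 was in 28.

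**Figure D1:**
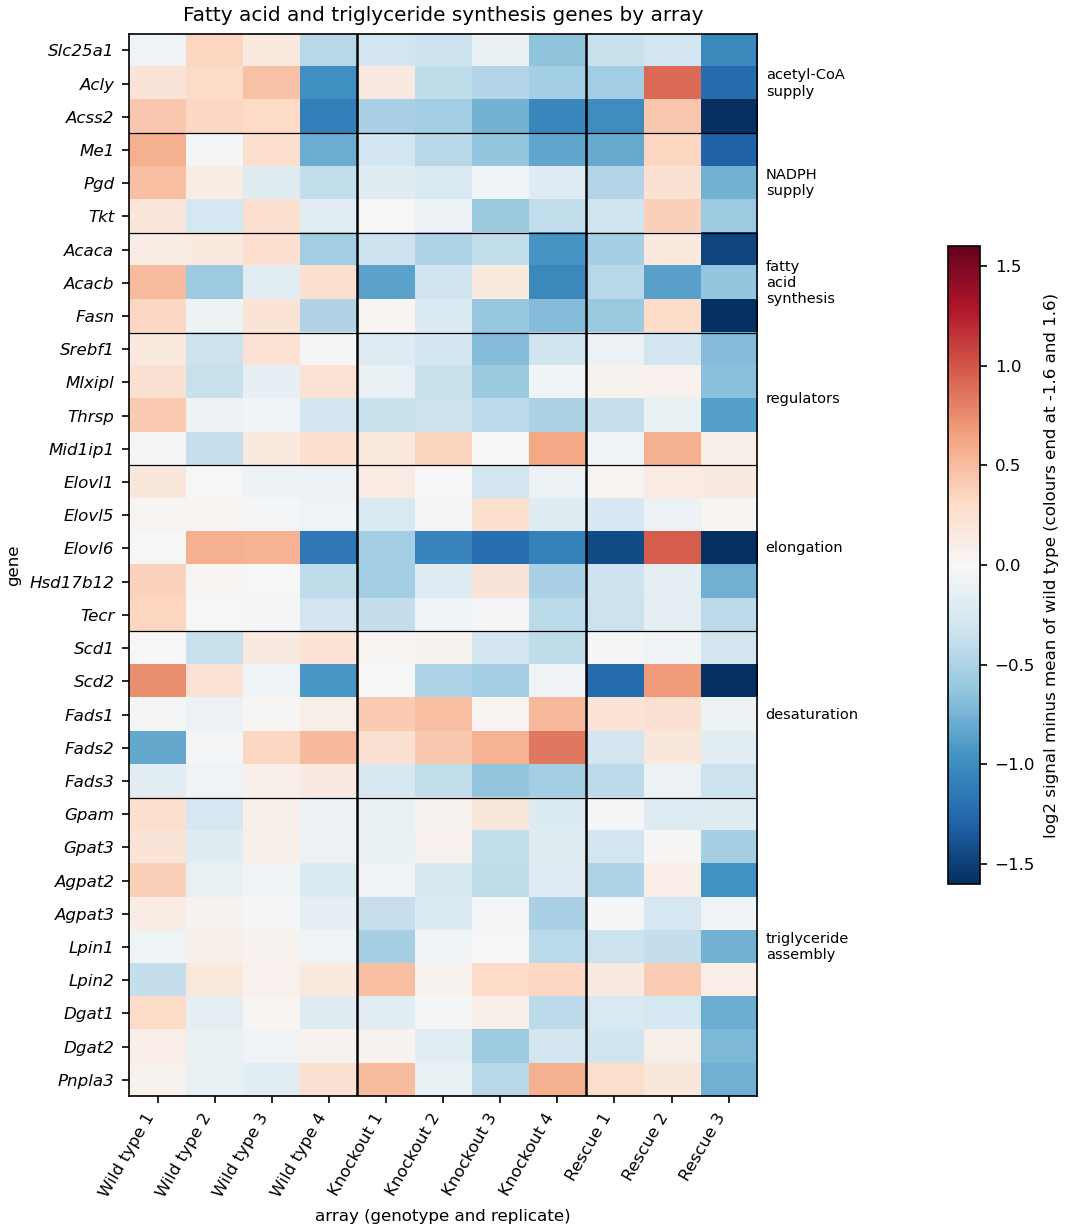
Log2 signal of each of the 32 synthesis genes (rows, grouped by role) in each of the 11 arrays (columns, by genotype and replicate), minus the mean of the 4 wild-type arrays; blue is lower, red is higher, and colours saturate at the ends of the scale. Rescue array 3 is lowest in 19 rows, and within wild type array 4 is low for Acly, Acss2, Me1, Elovl6 and Scd2.

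Acetyl-CoA supply was represented by the mitochondrial citrate carrier Slc25a1, by ATP citrate lyase (Acly), which splits the citrate, and by Acss2, which makes acetyl-CoA from acetate. Acly read 5306, 5712, 6359.9 and 2327 in the wild-type arrays, 5066, 3480.5, 3330.3 and 3151 in the knockout arrays, and 3132, 8618 and 1956 in the rescue arrays. The highest and the lowest value of the whole series both came from fat rescue, and all 3 genotypes overlapped. Its means were 4926 ± 1786 (SD, n = 4), 3757 ± 883 (n = 4) and 4569 ± 3556 (n = 3), and knockout differed from wild type by -0.32 ± 0.40 (log2, SE; adjusted p = 0.871).

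Acss2 read 2097, 1953, 1935 and 728 in the wild-type arrays, 1084, 1051, 921 and 750.1 in the knockout arrays, and 775, 2085 and 499.6 in the rescue arrays. Wild-type arrays 1 to 3 lay above every knockout array, but wild-type array 4 lay below them all. The log2 difference was -0.72 ± 0.40 in knockout (adjusted p = 0.717) and -0.73 ± 0.43 in fat rescue (adjusted p = 0.679), both against wild type. Slc25a1 read 2706, 3563, 3139 and 2059.8 in the wild-type arrays, 2270.5, 2213, 2609 and 1792 in the knockout arrays, and 2193, 2277 and 1369.7 in the rescue arrays. Its groups overlapped through wild-type array 4. Fat rescue was lower than wild type by mean, at -0.57 ± 0.20, which did not pass (adjusted p = 0.535).

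NADPH supply was represented by malic enzyme (Me1) and by Pgd and Tkt of the pentose phosphate pathway, in which Pgd yields NADPH and transketolase (Tkt) recycles the sugars. Me1 read 8162, 5367, 6567 and 3169 in the wild-type arrays, 4426, 4049, 3561 and 3083 in the knockout arrays, and 3150.1, 6996 and 2246 in the rescue arrays. As with Acss2, wild-type arrays 1 to 3 were above every knockout array, wild-type array 4 was not, and rescue array 2 was high. The differences from wild type were -0.55 ± 0.32 in knockout and -0.58 ± 0.35 in fat rescue (adjusted p = 0.730 and 0.690).

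Pgd read 6991, 5433, 4382 and 3803 in the wild-type arrays, 4399, 4230.1, 4804 and 4332 in the knockout arrays, and 3630.4, 5914 and 2965 in the rescue arrays. The knockout arrays lay close together, inside the wild-type range. Tkt read 16468, 11854, 17247 and 12719 in the wild-type arrays, 14466, 13493, 9505 and 10959.8 in the knockout arrays, and 11572, 18807 and 9602 in the rescue arrays. Neither gene passed, with log2 differences of -0.18 ± 0.21 and -0.27 ± 0.20 in knockout (adjusted p = 0.857 and 0.791). In knockout their dimmer kept probe sets read -0.18, -0.53 and -0.11 for Pgd and -0.48 and -0.16 for Tkt, all with overlapping groups.

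Fatty acid synthesis itself rests on the acetyl-CoA carboxylases Acaca and Acacb, the first cytosolic and committed to synthesis, the other at the mitochondrion, where its malonyl-CoA restrains fatty acid import, and on fatty acid synthase (Fasn). Fasn read 14843, 11193, 13772 and 8490.4 in the wild-type arrays, 12076, 10150.0, 7759 and 7275 in the knockout arrays, and 7815, 14490.2 and 3155 in the rescue arrays. Knockout lay within or below the wild-type range, and rescue arrays 2 and 3 differed by 4.59 times. The differences from wild type were -0.37 ± 0.36 in knockout and -0.73 ± 0.39 in fat rescue (adjusted p = 0.830 and 0.651).

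Acaca read 3514, 3618, 3899 and 2208 in the wild-type arrays, 2578, 2302, 2464 and 1684 in the knockout arrays, and 2230.0, 3612 and 1167 in the rescue arrays. Wild-type array 4 was again the one that made wild type and knockout overlap, and the difference in knockout was -0.54 ± 0.28 (adjusted p = 0.705). Its dimmer probe set read -0.21 in knockout and -0.02 in fat rescue, against -0.62 with the brightest. Acacb did not follow that order of arrays: it read 1495, 706, 933 and 1262 in the wild-type arrays, 584, 849, 1174 and 517 in the knockout arrays, and 776, 579 and 685 in the rescue arrays. Here wild-type array 4 was high and rescue arrays 2 and 3 lay close together, and fat rescue was -0.64 ± 0.28 from wild type (adjusted p = 0.595).

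Of the 4 regulators, Srebf1 encodes SREBP-1, Mlxipl encodes ChREBP, Thrsp encodes Spot 14, a small protein that promotes lipogenesis, and Mid1ip1 encodes its relative, which helps acetyl-CoA carboxylase to polymerize. Srebf1 read 3524, 2494, 3711 and 3104 in the wild-type arrays, 2755, 2579, 1968 and 2549 in the knockout arrays, and 2968, 2598 and 1965 in the rescue arrays. Wild-type array 2 was below 3 of the 4 knockout arrays, and the difference in knockout was -0.38 ± 0.15 (unadjusted p = 0.0297, adjusted p = 0.683). The range over the alternatives was -0.53 to -0.27.

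Thrsp read 13862, 9856, 10054 and 8489 in the wild-type arrays, 8152, 8160.0, 7775 and 7339.5 in the knockout arrays, and 8038, 9666 and 5625 in the rescue arrays. Every knockout array was below every wild-type array, which held for 2 of the 32 synthesis genes (Thrsp and Fads3) and for 1.86% of all genes. The difference was -0.40 ± 0.17 and did not pass (unadjusted p = 0.0299, adjusted p = 0.683), and it was -0.27 without wild-type array 1, the highest. Its 2 dimmer probe sets gave -0.47 and -0.45, but there the groups overlapped. Mlxipl had means of 951 ± 187, 782 ± 132 and 848 ± 226 in the 3 genotypes, which overlapped throughout. Mid1ip1 was one of the few with a higher mean in knockout (0.28 ± 0.17, adjusted p = 0.741), and it had wild-type values of 626 to 966 and knockout values of 808 to 1242.

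**Figure D2:**
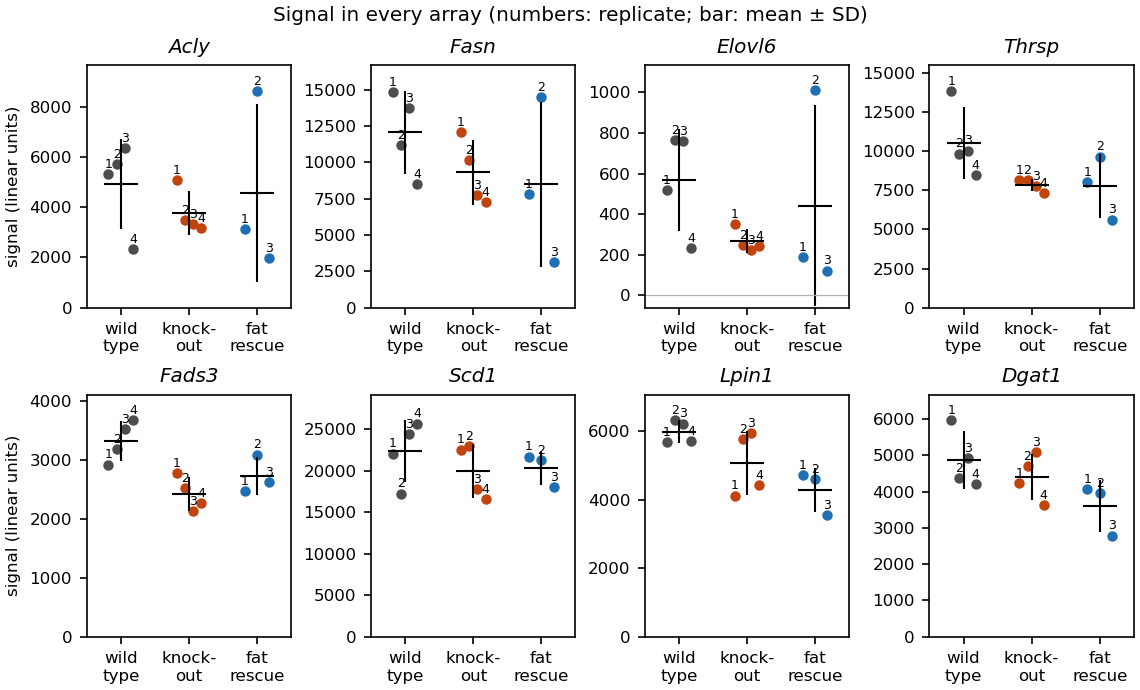
Signal (linear units) of 8 synthesis genes in every array, by genotype; numbers give the replicate, and bars the mean ± SD (n = 4, 4 and 3). In Acly, Fasn and Elovl6 rescue array 2 is high and rescue array 3 low, so that the SD of fat rescue is large, whereas in Fads3 and Thrsp all 4 knockout arrays lie below all 4 wild-type arrays.

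Elongation is a cycle in which an elongase (Elovl) adds a malonyl unit and Hsd17b12 and Tecr carry out the reductions. Elovl6, the elongase that takes palmitate to stearate, was among the members with the widest range; its values by array, like those of Scd2 and Fads2, are given because they were seen to vary. It read 517, 765, 759 and 234 in the wild-type arrays, 352, 247, 223 and 243 in the knockout arrays, and 190.2, 1012 and 121 in the rescue arrays. Wild-type arrays 1 to 3 lay above every knockout array, wild-type array 4 did not, and rescue arrays 2 and 3 differed by 8.34 times. The mean difference in knockout, -0.97 ± 0.54, was the lowest of the 32 and did not pass (adjusted p = 0.717), and its SD within genotypes was 0.96. Its dimmer kept probe set read -0.74.

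Hsd17b12 read 3804, 3025, 2963 and 2224 in the wild-type arrays, 2010.5, 2569, 3414 and 2051 in the knockout arrays, and 2342, 2664 and 1736 in the rescue arrays. Tecr read 3142, 2451, 2415 and 1997 in the wild-type arrays, 1899.5, 2346, 2429 and 1828 in the knockout arrays, and 1939, 2211 and 1839 in the rescue arrays. In both, wild-type array 1 was the highest array and the groups overlapped. Fat rescue minus wild type was -0.42 ± 0.21 for Hsd17b12 and -0.31 ± 0.15 for Tecr (adjusted p = 0.637 and 0.619). Elovl1 and Elovl5, which elongate very long and polyunsaturated chains, varied by no more than 1.38 and 1.43 times over all arrays, and their knockout differences were -0.06 ± 0.10 and -0.05 ± 0.11.

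The desaturases divide into Scd1 and Scd2, which make oleate and palmitoleate from saturated chains, and the cluster of Fads1, Fads2 and Fads3 on chromosome 19, of which Fads1 and Fads2 desaturate polyunsaturated fatty acids. Fads3 read 2917, 3186, 3514 and 3667 in the wild-type arrays, 2768, 2516, 2131 and 2263 in the knockout arrays, and 2469, 3089 and 2617 in the rescue arrays. All knockout arrays lay below all wild-type arrays, and this held in each of its 3 kept probe sets, at log2 differences of -0.46, -0.54 and -0.68. With the brightest the difference was -0.46 ± 0.11, from 3321 ± 336 to 2419 ± 282 (unadjusted p = 0.000954), and it did not pass over all genes (adjusted p = 0.385). With the brightest, fat rescue overlapped both other groups, at -0.29 ± 0.12 from wild type (adjusted p = 0.581) and 0.17 ± 0.12 from knockout (adjusted p = 0.998). In the probe set of middle brightness all rescue arrays lay below all wild-type arrays (log2 -0.45). In the dimmest kept probe set they overlapped (log2 -0.27).

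Fads1 lay the other way, with 1001, 956, 1032 and 1092 in the wild-type arrays, 1365, 1424, 1050.2 and 1457 in the knockout arrays, and 1189, 1209 and 965 in the rescue arrays. Of the knockout arrays 3 lay above all wild-type arrays, and knockout array 3 lay among them. The difference was 0.37 ± 0.11 (unadjusted p = 0.00625, adjusted p = 0.574). Fads2 read 67.6, 118, 150.1 and 171 in the wild-type arrays, 141, 161, 176 and 214 in the knockout arrays, and 97.5, 136 and 106 in the rescue arrays. Its rescue arrays all lay below its knockout arrays (log2 -0.61 ± 0.27, adjusted p = 0.998), which held for 1 of 32 synthesis genes and 2.09% of all genes. It did not hold in its other kept probe set, of nearly the same brightness, where fat rescue read 86.5, 193 and 107 and knockout 145 to 244 (log2 -0.55). In knockout against wild type Fads2 was at 0.52 ± 0.25, or 0.24 without wild-type array 1 (adjusted p = 0.694 with all arrays).

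Scd1 read 22070.3, 17263, 24408 and 25689.8 in the wild-type arrays, 22549.5, 22949, 17831 and 16628 in the knockout arrays, and 21699, 21254 and 18013 in the rescue arrays. It was among the steadier members, with a highest value 1.54 times the lowest, and its knockout difference was -0.16 ± 0.14 (adjusted p = 0.814). Its dimmer probe set read -0.28 in knockout, with overlapping groups. In fat rescue that probe set read -0.17 from wild type, with all rescue arrays below all wild-type arrays. Scd2 read 4714, 3299, 2703 and 1469.5 in the wild-type arrays, 2821, 1984, 1913 and 2696 in the knockout arrays, and 1198, 4505 and 921 in the rescue arrays. It had the pattern of Acly and Fasn, with rescue array 2 at 4.89 times rescue array 3, and its knockout difference was -0.27 ± 0.43 (adjusted p = 0.903).

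Triglyceride assembly runs from the glycerol phosphate acyltransferases (Gpam, Gpat3) through the acylglycerol phosphate acyltransferases (Agpat2, Agpat3) and the phosphatidate phosphatases (Lpin1, Lpin2) to the diglyceride acyltransferases (Dgat1, Dgat2), and Pnpla3 encodes a lipid droplet protein under SREBP-1c control. Lpin1 read 5684, 6315, 6221 and 5709.7 in the wild-type arrays, 4117, 5777, 5951 and 4425 in the knockout arrays, and 4716, 4594 and 3551 in the rescue arrays. All rescue arrays lay below all wild-type arrays, while knockout spanned both. Fat rescue was -0.49 ± 0.14 from wild type (unadjusted p = 0.00409, adjusted p = 0.410), the smallest p of the 32 in that comparison, with -0.48 in its dimmer probe set.

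Dgat1 read 5958, 4365, 4922 and 4214 in the wild-type arrays, 4240.0, 4706, 5084 and 3618 in the knockout arrays, and 4060.2, 3951 and 2788 in the rescue arrays. Its rescue arrays too lay below all wild-type arrays, so that this held for 2 of 32 synthesis genes, against 3.5% of all genes. The difference was -0.44 ± 0.16 (adjusted p = 0.539). Its dimmer probe set gave -0.20 there, with overlapping groups, and the 2 probe sets differed in sign in knockout, at -0.14 and 0.37. Dgat2 read 10514, 9040.4, 9427 and 10160.4 in the wild-type arrays, 10143, 8663, 6539 and 7969 in the knockout arrays, and 7801, 10432 and 5917 in the rescue arrays. Its groups overlapped, and its differences from wild type were -0.25 ± 0.16 and -0.32 ± 0.18 (adjusted p = 0.752 and 0.665).

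The other 6 measured genes of assembly are given by their differences. Agpat3 had an unadjusted p of 0.0249 in knockout (log2 -0.28 ± 0.11, adjusted p = 0.683), but its 3 dimmer probe sets read -0.19, 0.09 and -0.05. Agpat2, whose loss causes lipodystrophy, was at -0.23 ± 0.19 in knockout and -0.45 ± 0.21 in fat rescue. Gpam, which catalyses the first acylation, was at -0.02 ± 0.12 in knockout, the value nearest 0 of the 32, and this turned to 0.05 with quantile normalization. Gpat3 was at -0.15 ± 0.13. Lpin2 and Pnpla3 had higher means in knockout, at 0.29 ± 0.15 and 0.13 ± 0.25 (adjusted p = 0.701 and 0.923), and Pnpla3 was at -0.02 with median centring.

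**Figure D3:**
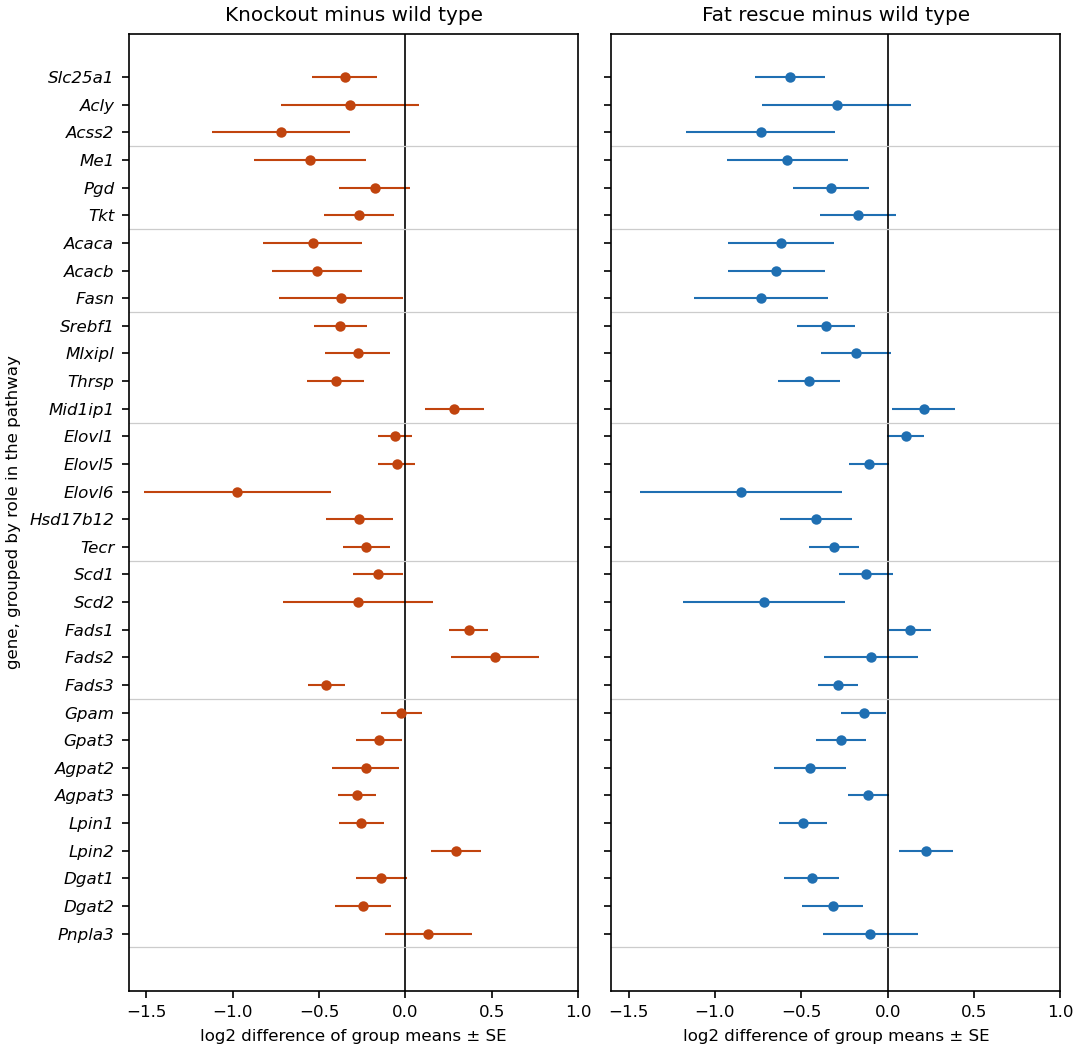
Log2 differences of group means (points) with their SE from the limma fit (bars) for the 32 synthesis genes, knockout minus wild type on the left and fat rescue minus wild type on the right. Of the points 27 on the left and 28 on the right lie below 0; Elovl6, at -0.97 and -0.85, has the widest bars, and none of the differences passed an adjusted p of 0.05.

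By role, knockout against wild type gave lower means for 3 of 3 measured genes of acetyl-CoA supply (median log2 -0.35), 3 of 3 of NADPH supply (-0.27), 3 of 3 of fatty acid synthesis (-0.51), 3 of 4 regulators (-0.33), 5 of 5 of elongation (-0.23), 3 of 5 desaturases (-0.16) and 7 of 9 of triglyceride assembly (-0.15), where quantile normalization turned Elovl5 of elongation to 0.01. The 5 with higher means were Fads1, Fads2, Mid1ip1, Lpin2 and Pnpla3. Centring each array on its median moved the median of all genes from 0.02 to -0.13. Relative to the median of all genes, 27 of 32 synthesis genes were lower. Median centring moves every gene's difference by the same amount, so it could not change this count. With quantile normalization the count was 25 of 32. At an unadjusted p under 0.05 there were 4 lower synthesis genes, Fads3, Agpat3, Srebf1 and Thrsp, where 3.36% of all genes were lower at that level, and 1 higher, Fads1, where 3.94% were higher (5 of 32 in either direction, against 7.3%). None was higher in all knockout than in all wild-type arrays, as 1.98% of all genes were. The lowest adjusted p of any member over all alternatives was 0.0638, for Fads3 with median centring.

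In fat rescue against wild type the same counts were 3 of 3, 3 of 3, 3 of 3, 3 of 4, 4 of 5, 4 of 5 and 8 of 9, in the same order of roles. Lower at an unadjusted p under 0.05 were 7, namely Lpin1, Slc25a1, Dgat1, Thrsp, Fads3, Acacb and Agpat2, where 3.49% of all genes were lower and 4.6% higher at that level (8.09% in all). None was higher in all rescue than in all wild-type arrays, as 5.74% of all genes were. The median of -0.31 was -0.17 without rescue array 3 and -0.48 without rescue array 2. Among signs of RNA quality, beta-actin's 3' signal over its 5' signal was 1.65 to 1.83 in wild type, 1.53 to 1.69 in knockout and 1.47 to 1.56 in fat rescue. The same ratio for Gapdh overlapped between genotypes, at 0.918 to 1.029, 0.865 to 1.001 and 0.918 to 0.950 in that order. The part of RNA quality in the differences of either genotype from wild type was not tested.

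Fat rescue against knockout, which asks what returns with the receptor in fat, gave lower means for 23 of 32 synthesis genes (47.4% of all genes) with a median of -0.08 against 0.01 for all genes. The number called was 0, as it was for all 12709 genes (0.0% called by limma; 484 genes, 3.81%, had an unadjusted p under 0.05). The only synthesis gene at an unadjusted p under 0.05 was Fads2, lower in fat rescue, as 1.72% of all genes were at that level. The sign of the median rested on 1 array: without rescue array 3 it was 0.08, with 10 of 32 genes lower, and without rescue array 2 it was -0.28, with 29 lower. No synthesis gene was higher in all rescue arrays than in all knockout arrays, as 2.84% of all genes were.

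The SD between arrays of 1 genotype ranged from 0.14 for Elovl1 to 0.96 for Elovl6 on the log2 scale, with a median of 0.30 over the synthesis genes and 0.22 over all genes. Of the 32, 23 were above the median of all genes and 6 above its 90th percentile of 0.54: Elovl6, Scd2, Acss2, Acly, Fasn and Me1. These 6 encode steps that supply acetyl-CoA and NADPH, build palmitate, elongate it and desaturate it. Below the median of all genes lay Elovl1, Elovl5, Fads3, Agpat3, Fads1, Gpam, Lpin1, Lpin2 and Gpat3, of which 5 belong to triglyceride assembly. Of the pairs of arrays of 1 genotype, rescue arrays 2 and 3 differed most: 27 of 32 synthesis genes were higher in array 2, with a median log2 difference of 0.58, where 49.3% of all genes were higher. Of the transcription factors, Srebf1 in rescue array 2 was at 1.32 times rescue array 3 and Mlxipl at 1.67 times.

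**Figure D4:**
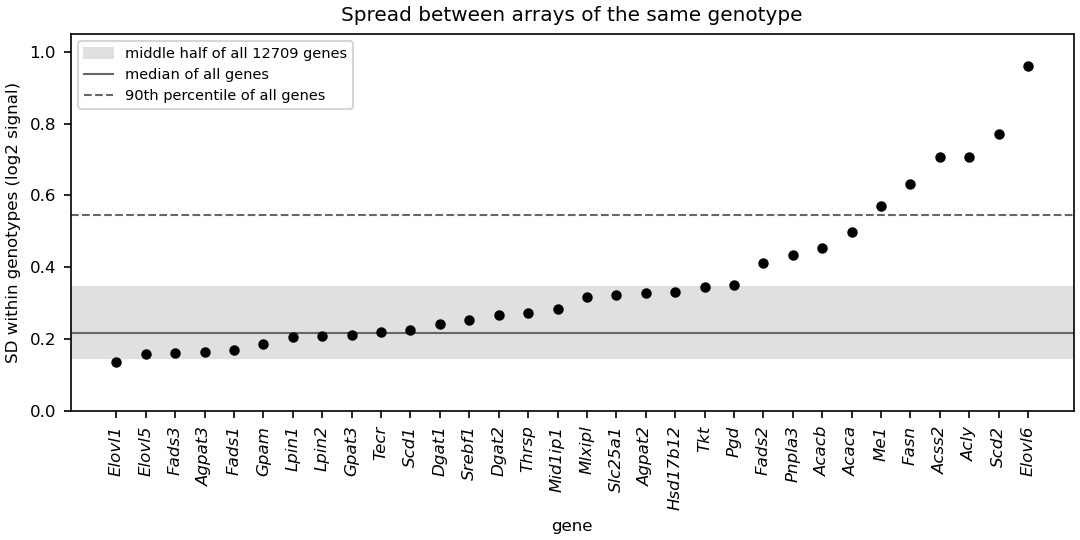
SD of the log2 signal between arrays of the same genotype (pooled over 3 genotypes) for each of the 32 synthesis genes, in order; the band and lines give the middle part, median (0.22) and 90th percentile (0.54) of all 12709 genes. Me1, Fasn, Acss2, Acly, Scd2 and Elovl6 lie above the 90th percentile.

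Cell type markers moved with the synthesis genes in part. The medians of the synthesis genes relative to wild type were 0.19, -0.04, 0.06 and -0.13 in the wild-type arrays, -0.15, -0.21, -0.35 and -0.40 in the knockout arrays, and -0.33, 0.10 and -0.71 in the rescue arrays. Those of the 11 adipocyte markers were 0.10, -0.21, 0.01 and 0.13 in the wild-type arrays, -0.07, 0.00, -0.23 and -0.36 in the knockout arrays, and -0.07, -0.04 and -0.28 in the rescue arrays. Both were low in knockout arrays 3 and 4 and rescue array 3, but wild-type array 4, where acetyl-CoA supply was at -0.98, had the highest adipocyte median. All 11 adipocyte markers had lower means in knockout (median -0.22; 0 passed) and 10 of 11 in fat rescue (median -0.11; 0 passed), and their summed signal was 107874 to 143695 in wild type, 99380.4 to 135070 in knockout and 107374 to 128889 in fat rescue. Their part in the result was not tested, and in bulk tissue fewer fat cells and less RNA per fat cell cannot be told apart.

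**Figure D5:**
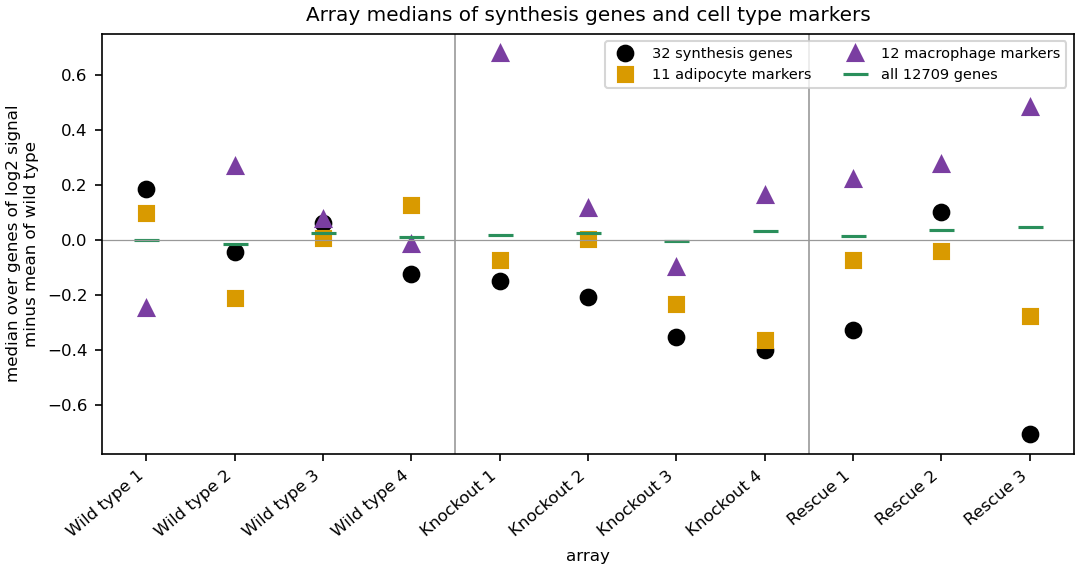
Median over genes of the log2 signal minus the mean of wild type, for each of the 11 arrays: 32 synthesis genes (circles), 11 adipocyte markers (squares), 12 macrophage markers (triangles) and all 12709 genes (dashes). The synthesis genes reach -0.71 in rescue array 3, where the adipocyte markers are at -0.28 and the macrophage markers at 0.48.

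Markers of other cells, which the depot also holds, gave these values beside the above. All 12 macrophage markers had higher means in knockout (median 0.20) and 11 of 12 in fat rescue (median 0.30), with a summed signal of 14894 to 21045 in wild type, 16307.5 to 30669 in knockout and 20662 to 25130 in fat rescue, and none was at 0. The highest knockout sum was that of array 1, while knockout arrays 2 to 4, at 19926, 16307.5 and 18474, lay inside the wild-type range. The macrophage medians of the knockout arrays were 0.68, 0.12, -0.10 and 0.16. Mesothelial markers summed to 2735 to 4489.8 in wild type, 3713 to 4631 in knockout and 4450.3 to 5294 in fat rescue, and endothelial markers to 4131 to 4834, 3780.5 to 4625 and 4276 to 5802.5. The lowest wild-type mesothelial sum was that of array 1, and arrays 2 to 4 were at 4489.8, 4196.7 and 3942.5. Of 7 mesothelial markers 6 had higher means in knockout (median 0.11) and 6 in fat rescue (median 0.38). Of 8 endothelial markers 2 had higher means in knockout (median -0.06) and 6 in fat rescue (median 0.13). Of 8 lymphocyte markers 6 were measured, of which 5 had higher means in knockout (median 0.30) and 6 in fat rescue (median 0.41), with sums of 174.5 to 394.6, 345.3 to 569.2 and 344.1 to 453.0 in wild type, knockout and fat rescue. These genes were dim, with wild-type means of 36.5 to 68.1 where the array medians were 41.3 to 45.1. Without wild-type array 1 (174.5) and knockout array 1 (569.2), the sums were 347.6 to 394.6 in wild type and 345.3 to 372.2 in knockout. The 8 fibroblast markers, of which 5 had higher means in knockout (median 0.13) and 6 in fat rescue (0.06), summed to 33761 to 42311, 34191 to 55034 and 36973 to 40544.5 in that order, and the 5 smooth muscle markers (1 and 2 with higher means) to 3737 to 8029, 4252 to 5609 and 5438 to 5899. The highest fibroblast sum in knockout was again that of array 1, while arrays 2 to 4, at 42090, 35143 and 34191, lay inside the wild-type range. Of 7 brown adipocyte markers 4 were measured (Ucp1, Elovl3 and Dio2 fell under the filter), and their summed signal was 431.8 to 604.3 in wild type, 318.0 to 459.4 in knockout and 219.4 to 335.8 in fat rescue. All 4 had lower means in fat rescue than in wild type, with a smallest adjusted p of 0.0507. Of 6 epididymis markers 1 was measured. No marker passed an adjusted p of 0.05, and the part of these cells in the synthesis genes was not tested.

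The pathway genes outside the member list, further enzymes and the regulators of SREBP, LXR and AMPK, had no called gene either. Of 28 other enzymes 21 were measured and of 20 regulators 19, and 0 of these 40 passed in any comparison. In knockout against wild type 15 of 21 and 12 of 19 had lower means (medians -0.04 and -0.05). Nearest to passing were Rxra, the partner of LXR (-0.19 ± 0.09), Nr1h3, which encodes LXR-alpha (-0.21 ± 0.11), and Prkab2, an AMPK subunit (-0.22 ± 0.12), at adjusted p of 0.694, 0.705 and 0.717.

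In fat rescue against wild type 16 of 21 and 14 of 19 had lower means (medians -0.12 and -0.10), with Taldo1 of the pentose phosphate pathway at -0.33 ± 0.13, Nr1h3 at -0.29 ± 0.12 and Scap, the escort of SREBP, at -0.22 ± 0.09 (adjusted p = 0.579, 0.581 and 0.581). Of the 19 regulators 2, Scap and Usf1 (-0.41 ± 0.18, adjusted p = 0.595), lay below wild type in all rescue arrays, as did 3.5% of all genes. In fat rescue against knockout Usf1, an E-box factor, was at -0.47 ± 0.18, Agpat1 at -0.30 ± 0.14 and Mlx, the partner of ChREBP, at 0.36 ± 0.18 (adjusted p = 0.998 each). Between rescue arrays 2 and 3 the 40 genes had a median log2 difference of 0.06, with 25 higher in array 2.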

How the data were processed

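Each of the 11 RNA samples has 1 one-colour Affymetrix array. The values deposited are signal intensity on a linear scale, which the authors scaled to a trimmed mean of 200 in every array (GCOS 1.3 and MAS5, per the submitters' processing notes). The table gives no counts, so the number of arrays limits precision. The 1 value at 0 was set to 0.1 and log2 taken. Of 45101 probe sets 64 were controls, 34945 had 1 symbol, 932 several and 9160 none in the platform annotation. The upper 60% by mean log2 signal were kept (27022), and each gene's brightest one was used, giving 12709 genes. All arrays entered 1 limma 3.58.1 fit (eBayes with trend, R 4.3.3, statmod 1.5.0) with genotype as factor. Contrasts were two-sided, with Benjamini-Hochberg adjustment over all genes at 0.05. The steps were tested on simulated data. The members and lists were chosen with earlier results of these data known, so no test over a list is given.

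Values in every array are given for the brightest member of each role, for the 2 of each role with the smallest unadjusted p in any comparison, and for Elovl6, Scd2 and Fads2, chosen after their values were seen. Of the other pathway genes up to 3 per comparison are named, those with the smallest p. The replicate numbers of the labels were not taken to pair arrays, as the labels name no pairs. Same-numbered arrays of different genotypes had correlations of their deviations from -0.14 to 0.35, and differently numbered ones from -0.31 to 0.28. These overlapping ranges do not settle whether the arrays are paired. The labels give no batch. Alternatives were quantile normalization, median centring, log2(value + 50), other filters on dim probe sets, averaging the probe sets of a gene, other forms of eBayes, array weights, fitting 2 groups at a time, a block for replicate number, and leaving out each array.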

Additional observations from a re-analysis of the deposited data

Results flagged for a closer look

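Acss2 had 1 wild-type array far from the others of its group: wild-type array 4 read 728, where the other 3 read 1935 to 2097, and the gap was 0.924 of the group's range on the log2 scale, above the critical value of 0.829. This was the only one of 64 groups tested (32 genes in wild type and in knockout), where chance flags about 1 in 20.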

How the results depend on the processing

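The count of synthesis genes called was 0 in every comparison and every alternative run, as was that of other pathway genes. Fads3 in knockout kept its sign in all 23 alternatives (-0.61 to -0.39, adjusted p 0.0638 to 0.778). Some of these could not turn a sign. Other forms of eBayes, other filters and fitting 2 groups at a time leave a member's difference of means unchanged. The count of all genes called was 5 for knockout against wild type. It was 10 with median centring, 2 without trend and with only the groups compared, 8 with the replicate block, 14 without the 2 arrays apart on the first component (chosen after the data had been seen), and 2 to 14 when 1 array was left out (14 without wild-type array 1). For fat rescue against wild type it was 2. It was 5 with median centring, 6 with the upper 40% of probe sets and without the 2 arrays apart, 7 with array weights, 1 with the mean of probe sets, without trend, with robust eBayes and with only the groups compared, and 1 to 8 when 1 array was left out (8 without wild-type array 1). The median of the synthesis genes ranged, leaving out 1 array, from -0.32 to -0.18 for knockout against wild type, -0.48 to -0.17 for fat rescue against wild type and -0.28 to 0.08 for fat rescue against knockout. With the replicate block these medians were -0.26, -0.37 and -0.17, and the block called no synthesis gene.

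The sign of 27 members held in all alternatives for each comparison with wild type, and of 9 for fat rescue against knockout, counting the alternatives that could not turn it. In knockout against wild type, the signs that turned were as follows. With quantile normalization Elovl5 was 0.0071 and Gpam was 0.049. With median centring Pnpla3 was -0.018. With averaged probe sets Dgat1 was 0.11. Without both arrays set apart Gpam was 0.065. Leaving out 1 array gave -0.11 to 0.065 for Gpam, -0.15 to 0.015 for Elovl5, -0.13 to 0.015 for Elovl1 and -0.015 to 0.32 for Pnpla3. In fat rescue against knockout, the signs that turned were as follows. With median centring Acss2 was 0.030 and Me1 was 0.018. With averaged probe sets Acaca was 0.057 and Agpat3 was -0.15. With array weights Acss2 was 0.053, Me1 was 0.031 and Acaca was 0.015. With the replicate block Acly was -0.18, Mid1ip1 was 0.022 and Elovl6 was -0.083. Without both arrays set apart Acss2 was 0.12, Me1 was 0.082, Srebf1 was -0.11, Mlxipl was -0.025, Mid1ip1 was 0.052, Elovl5 was 0.018 and Scd1 was -0.016. Leaving out 1 array gave -0.60 to 0.43 for Acss2, -0.49 to 0.33 for Me1, -0.28 to 0.13 for Dgat2, -0.58 to 0.49 for Acly, -0.18 to 0.30 for Tkt, -0.31 to 0.088 for Acacb, -0.11 to 0.18 for Srebf1 and -0.032 to 0.34 for Mlxipl. It gave -0.13 to 0.043 for Elovl5, -0.28 to 0.026 for Hsd17b12, -0.051 to 0.12 for Scd1, -0.26 to 0.052 for Mid1ip1, -0.79 to 0.74 for Elovl6, -0.35 to 0.022 for Slc25a1, -0.44 to 0.063 for Pgd and -0.47 to 0.35 for Acaca. It gave -0.88 to 0.22 for Fasn, -0.22 to 0.17 for Thrsp, -1.14 to 0.0031 for Scd2, -0.26 to 0.015 for Gpat3, -0.50 to 0.035 for Agpat2 and -0.43 to 0.10 for Pnpla3. In fat rescue against wild type, the signs that turned were as follows. With averaged probe sets Fads2 was 0.039. With the replicate block Fads2 was 0.043 and Pnpla3 was 0.014. Leaving out 1 array gave -0.37 to 0.074 for Fads2, -0.90 to 0.17 for Acly, -0.45 to 0.036 for Tkt, -0.31 to 0.063 for Mlxipl and -0.29 to 0.23 for Pnpla3. The cause was not tested. The labels do not say whether the replicate numbers pair the arrays.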
